A study of Gossypium hirsutum with 12 samples.

Results

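The genes described here encode parts of the fiber cytoskeleton. They are alpha-tubulin 10 (Gorai.009G224800), alpha-tubulin 2 (Gorai.012G147000) and a profilin (Gorai.009G028500), 3 of the 37500 genes in the authors' deposited table. They were picked by gene ID with their means at 12 and 0 d post-anthesis (DPA) already known, so these means and their ratios are given as a description, without a test. Names are those of upland cotton records which the study's supplementary tables pair with the gene IDs.

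RNA was sequenced from fibers of upland cotton (Gossypium hirsutum) at 12 DPA, during elongation, and at 0 DPA, when fiber cells emerge from the ovule surface. Each stage had 6 libraries, 1 from each of 6 lines: wild-type brown (BCF), green (GCF) and white (WCF) cotton, and the transgenic lines #5 (brown), #6 (green) and #24 (white). All 3 transgenic lines were progeny of a single plant that carried a GhCHI-1 (chalcone isomerase) RNA interference hairpin driven by the CaMV35S promoter in a brown cotton. The labels call the tissue cotton fiber at both stages, whereas the study's methods speak of ovules and fibers. A difference between stages can therefore hold a difference in tissue, and in such bulk samples fewer cells of a type and less RNA per cell cannot be told apart.

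A cotton fiber is a single epidermal cell of the seed coat that elongates greatly. Microtubules, polymers of paired alpha- and beta-tubulin, lie under its membrane and guide the laying down of cellulose, so that growth is directed along the cell. Actin filaments carry vesicles to the growing wall. Profilin binds actin monomers and, with formins, feeds them to growing filaments, while actin depolymerizing factors (ADF) sever and shorten filaments.

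The values are read counts divided by DESeq size factors and averaged over the 6 libraries of a stage, called normalized counts here. They are the authors' means, so neither lines nor colors can be compared and no spread between lines can be given for most genes. Counts are not divided by gene length, so a level can be compared between stages within a gene, and counts of different genes set side by side also carry their lengths. The normalized counts of all genes summed to 4870048 at 12 DPA and 3044867 at 0 DPA. The size factors, recovered from the low means, were between 0.77 and 1.30 for the 12 DPA libraries and between 0.487 and 1.67 for the 0 DPA libraries. If libraries of a stage had equal normalized totals, the 12 DPA libraries held roughly 3748760 to 6309377 gene reads and the 0 DPA libraries 1482909 to 5075787. Reads of both homoeologs of this tetraploid, as far as they aligned to the diploid Gossypium raimondii genome, were counted on 1 gene ID.

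All 3 genes had much higher means at 12 DPA than at 0 DPA. The alpha-tubulins were 26.2-fold (alpha-tubulin 10) and 17.2-fold (alpha-tubulin 2) higher at 12 DPA and were well covered by reads at both stages. The profilin was 556-fold higher at 12 DPA (347-fold with stages scaled by their gene sums) and had only a few reads at 0 DPA. Among the 33463 genes with reads, 20.8% were at least 2-fold, 9.35% at least 4-fold and 4.61% at least 8-fold higher at 12 DPA. The 3 genes all lay past 8-fold, which their choice fixed in advance.

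Alpha-tubulin 10 encodes a subunit of the microtubule wall. Its mean was 31072 normalized counts at 12 DPA, against 1186 at 0 DPA. These means rest on 143506 to 241529 reads at 12 DPA and 3464 to 11858 reads at 0 DPA, depending on how the reads fell over the libraries. The log2 ratio was 4.71, with a counting error of at most 0.0248, which leaves out the variation between lines. The gene held 0.638% of the normalized counts of all genes at 12 DPA and 0.0389% at 0 DPA, a 16.4-fold difference on this scale. Its ratio took rank 391 of the 21672 genes with reads at both stages and a mean over both of at least 10.

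Alpha-tubulin 2 belongs to the same family. Its mean was 19335 normalized counts at 12 DPA, against 1124 at 0 DPA. The log2 ratio was 4.10, with a counting error of at most 0.0256. It held 0.397% of all normalized gene counts at 12 DPA and 0.0369% at 0 DPA, a 10.8-fold difference.

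The alpha-tubulin pair stood in unequal counts at 12 DPA and in nearly equal counts at 0 DPA. Alpha-tubulin 10 had 1.61 times the normalized counts of alpha-tubulin 2 at 12 DPA and 1.05 times at 0 DPA. This ratio is free of the scaling of the stages, and gene length cancels when it is compared between them. The log2 ratios of the pair were 0.61 apart, with a counting error of 0.0357. Whether this exceeds the spread between lines was not tested, since stage means do not hold that spread.

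Of the 3 genes, the profilin had the fewest reads at 0 DPA. Its mean was 1763 normalized counts at 12 DPA, against 3.17 at 0 DPA. The log2 ratio was 9.12, with a counting error of 0.34 and a 95% counting interval from 8.45 to 9.78. This interval leaves out the spread between the 0 DPA libraries, which is given below. It held 0.0362% of all normalized gene counts at 12 DPA and 0.000104% at 0 DPA, so that the 556-fold difference was 347-fold on this scale. Its ratio took rank 11 of the 21672 genes, which leave out genes without reads at 0 DPA. A gene this low at 0 DPA enters these 21672 only through a higher 12 DPA mean, so a high rank is partly built in. The log2 ratio exceeded that of alpha-tubulin 10 by 4.41 and that of alpha-tubulin 2 by 5.01, each with a counting error of 0.34.

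**Figure D1:**
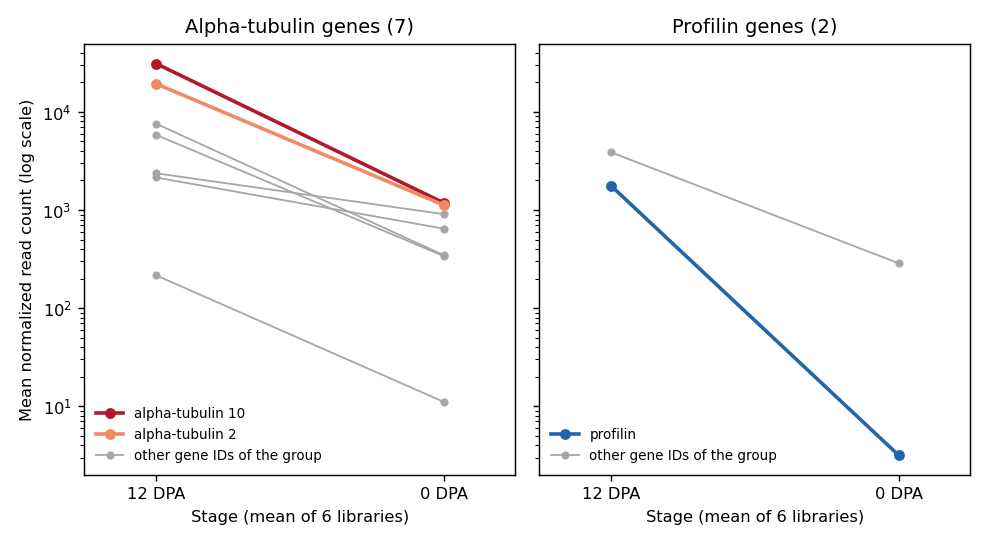
Mean normalized read counts (log axis) at 12 and 0 DPA of the 7 alpha-tubulin gene IDs (left) and the 2 profilin gene IDs (right), each line joining the means of 1 gene ID over 6 libraries per stage. Alpha-tubulin 10 and 2 lie apart at 12 DPA (31072 and 19335) and nearly coincide at 0 DPA (1186 and 1124), and the profilin has the steepest line, with 1763 at 12 DPA against 3.17 at 0 DPA.

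The few reads of the profilin at 0 DPA could be assigned to single libraries, because a stage mean is a sum of whole reads, each worth a fixed amount in its library. Exactly 1 combination of whole reads gave the deposited mean. The libraries are lettered A to F by rising size factor, and which line each belongs to is not known. The gene had 22 reads in all: 2 in A, 1 in B, 1 in C, 8 in D, 1 in E and 9 in F. The counting interval of this total runs from 13.8 to 33.3 reads (95%, exact Poisson).

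Every 0 DPA library thus held at least 1 profilin read, and the reads were unevenly spread. Divided by the size factors, the normalized counts were 4.11 in A, 1.02 in B, 0.959 in C, 6.85 in D, 0.701 in E and 5.40 in F (mean 3.17 ± 2.64, SD, n = 6). Libraries A, D and F held 85.9% of this sum and B, C and E were all near 1 normalized count. The 12 DPA mean was 257-fold above D, the highest 0 DPA library. When each 0 DPA library was left out in turn, the ratio ran from 481-fold (without E) to 723-fold (without D). The 12 DPA mean was kept over all lines, so this range leaves out the spread at 12 DPA.

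Library D stood high for low genes in general. Over 5715 genes with a 0 DPA mean of 1 to 8, decoded in the same way, D held 22.0% of the normalized counts, A 19.2% and F 14.8%. Over the 461 of these genes that were at least 8-fold higher at 12 DPA, D held 23.8%, A 16.7% and F 18.9%. The profilin had 36.0% of its normalized counts in D, 21.6% in A and 28.4% in F. The part of the libraries' general make-up in this spread was not tested.

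Of the other 35 cytoskeletal genes listed below, 3 had few enough reads at 0 DPA to be decoded. An ADF5 gene (Gorai.008G035300) had 49 reads, 18 of them in D and 14 in F, and 760 normalized counts at 12 DPA against 6.77 ± 4.72 at 0 DPA (SD, n = 6). KCH1 (Gorai.013G127500), a kinesin, had 56 reads, and its normalized counts lay between 4.91 and 12.0 in the 0 DPA libraries. An actin gene matched to ACT12 (Gorai.013G022400) had 53 reads, of which 27 lay in D. Without D, this actin gene would be 20.5-fold rather than 12.6-fold higher at 12 DPA. D was the highest library for the profilin and for all 3 of these genes.

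**Figure D2:**
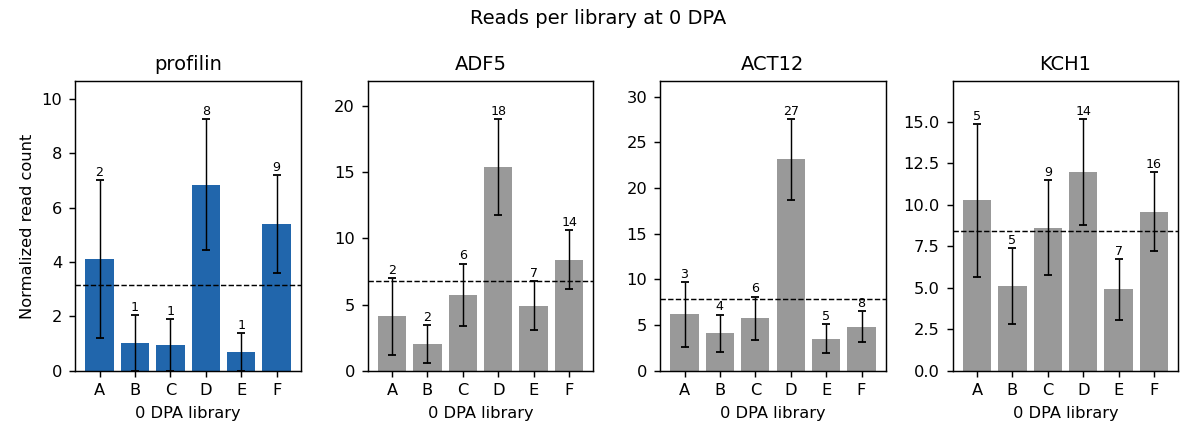
Normalized read counts of the profilin and 3 other cytoskeletal genes in each 0 DPA library (A to F, by rising size factor), with whole reads printed above the bars, whiskers of 1 Poisson counting error and a dashed line at the mean. The profilin reads sit mainly in D, F and A (6.85, 5.40 and 4.11 normalized counts), and each of the 4 genes is highest in D.

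Each member was then set beside its own gene family. In the supplementary tables, a search of record names for 7 kinds of cytoskeletal protein gave 38 gene IDs. They were 7 alpha-tubulin, 11 beta-tubulin, 10 actin, 4 ADF, 2 profilin, 2 LIM protein and 2 kinesin genes. Other cytoskeletal proteins were not sought, and actin only as actin 1 or a numbered ACT name. These tables list genes that changed between stages in the same libraries, so the direction of the list is not independent evidence. All 38 were at least 2-fold higher at 12 DPA, 32 at least 4-fold and 21 at least 8-fold. With each stage scaled by its gene sum, these counts were 36, 25 and 17. Under this scaling, 12.1% of all genes with reads were at least 2-fold higher. The shares that follow are without this scaling. The 21672 genes with reads at both stages and a mean of at least 10 include all 38. Among these 21672, the shares past these folds were 21.7%, 9.13% and 4.41%. Among the 421 of them with a record that names a protein, chosen by the same tables, the shares were 91.9%, 63.2% and 37.5%. The median log2 ratio was 3.48 over the 38 genes, 2.33 over the other 383 genes with a protein name, and -0.03 over all 21672 genes. Nothing particular to the list is read from these counts, as its selection was known to favor higher values at 12 DPA.

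Within the alpha-tubulin group, 5 of 7 gene IDs had log2 ratios between 4.10 and 4.71, while 2 lay below 2. After alpha-tubulin 10 came TUA7 (Gorai.005G097800), with 7578 normalized counts at 12 DPA, against 348 at 0 DPA, a log2 ratio of 4.45. A TUA5 gene (Gorai.007G261000) had 216 at 12 DPA and 11.1 at 0 DPA, a log2 ratio of 4.28 with a counting error of at most 0.26. Next came alpha-tubulin 2 at 4.10 and TUA8 (Gorai.007G086400) at 4.10, neighbours whose ratios were the same to this precision. The other gene IDs matched to the TUA5 record were only 3.32-fold (Gorai.010G125700) and 2.61-fold (Gorai.013G244600) higher at 12 DPA. One matched record thus covered gene IDs with log2 ratios of 4.28, 1.73 and 1.38.

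The 2 alpha-tubulin members took a larger part of the family's counts at 12 DPA. They held 73.5% of the normalized counts of the 7 alpha-tubulin gene IDs at 12 DPA and 50.6% at 0 DPA. Alpha-tubulin 10 alone held 45.3% at 12 DPA and 26.0% at 0 DPA, and alpha-tubulin 2 held 28.2% at 12 DPA and 24.6% at 0 DPA. The larger difference in share was thus that of alpha-tubulin 10. The normalized counts of the other 5 alpha-tubulin IDs summed to 18142 at 12 DPA and 2254 at 0 DPA, 8.05-fold higher at 12 DPA, against 21.8-fold for the sum of the 2 members. Of these 5, TUA7 (21.8-fold), Gorai.007G261000 (19.4-fold) and TUA8 (17.2-fold) had ratios like those of the members. The sum was lowered by Gorai.010G125700 (3.32-fold) and Gorai.013G244600 (2.61-fold), which had 646 and 908 normalized counts at 0 DPA. A larger share at 12 DPA is thus not particular to the members, which were chosen with their means known.

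Beta-tubulins, the partners of alpha-tubulin in the microtubule, showed a wider range of ratios. Their 11 gene IDs summed to 28222 normalized counts at 12 DPA, against 2514 at 0 DPA, 11.2-fold higher, against 15.0-fold for the 7 alpha-tubulin IDs. BTub1 (Gorai.004G211800) had the largest ratio of the tubulins, with 2757 normalized counts at 12 DPA against 19.3 at 0 DPA (log2 ratio 7.16, counting error at most 0.19). Tub1 (Gorai.004G210600) came next, with 8812 at 12 DPA against 373 at 0 DPA, a log2 ratio of 4.56 close to the 4.71 of alpha-tubulin 10. At the low end, beta-tubulin 13 (Gorai.002G123400) had 326 at 12 DPA and 146 at 0 DPA, 2.23-fold higher. The summed counts of alpha- over beta-tubulin IDs were 2.43 at 12 DPA and 1.82 at 0 DPA.

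The other profilin gene had a much smaller ratio. PFN2 (Gorai.004G282400) had 3871 normalized counts at 12 DPA, against 287 at 0 DPA, 13.5-fold higher (log2 ratio 3.75, counting error at most 0.051). The profilin held 31.3% of the counts of the pair at 12 DPA and 1.09% at 0 DPA. The sum over the pair was 5634 at 12 DPA and 290 at 0 DPA, 19.4-fold higher. The difference between the log2 ratios of the pair was 5.36.

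Genes for other actin-binding proteins, and for actin itself, had smaller ratios than the profilin. The ADF5 genes Gorai.008G035300 and Gorai.005G253800 were 112-fold and 45.3-fold higher at 12 DPA, and both had fewer than 11 normalized counts at 0 DPA. ADF3 (Gorai.002G254700) and ADF6 (Gorai.002G254800), with 461 and 315 normalized counts at 0 DPA, were 4.59-fold and 4.55-fold higher at 12 DPA. The actin genes had log2 ratios from 1.91 for ACT15 (Gorai.N017400) to 4.70 for ACT5 (Gorai.002G257900), with a median of 2.82. LIM-2 (Gorai.010G026100), of a family whose plant members bundle actin, was 20.1-fold higher and LIM6 (Gorai.005G230900) 7.46-fold. KCH1 was 11.1-fold and kch2 (Gorai.004G142900) 4.44-fold higher.

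**Figure D3:**
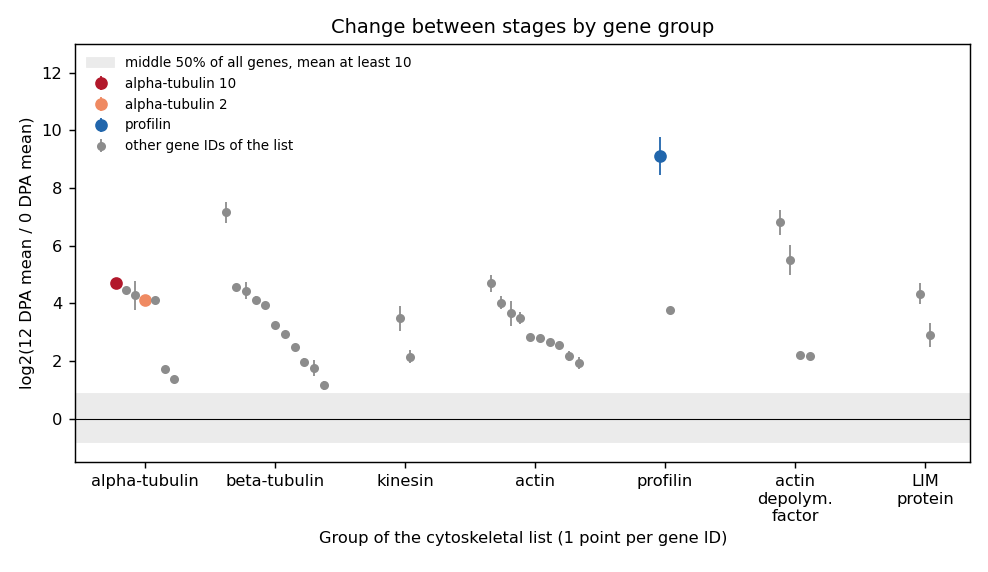
Log2 ratio of the 12 DPA mean over the 0 DPA mean for each of 38 cytoskeletal gene IDs by group, with 95% counting intervals (the widest the size factors allow, except for the 4 genes with known reads) and a grey band for the middle 50% of genes with a mean of at least 10. The band covers only genes with reads at both stages. The profilin lies highest at 9.12, BTub1 and an ADF5 gene follow at 7.16 and 6.81, and alpha-tubulin 10 and 2 lie at 4.71 and 4.10.

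Within the list, the largest ratios belonged to genes with few reads at 0 DPA, a count that also depends on gene length. The 0 DPA mean is also the denominator of the ratio, so this tie is partly built in. The 4 gene IDs with a ratio above that of alpha-tubulin 10 were the profilin, BTub1 and the ADF5 genes, which had 3.17, 19.3, 6.77 and 10.9 normalized counts at 0 DPA. Other gene IDs as low at 0 DPA had smaller log2 ratios. These were 4.28 for the TUA5 gene Gorai.007G261000 (11.1 normalized counts at 0 DPA) and 3.66 for the ACT12 gene Gorai.013G022400 (7.90). KCH1 had 3.47 (8.42) and LIM6 had 2.90 (17.3). In contrast, alpha-tubulin 10 and 2 had 1186 and 1124 normalized counts at 0 DPA and were still 26.2-fold and 17.2-fold higher at 12 DPA.

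**Figure D4:**
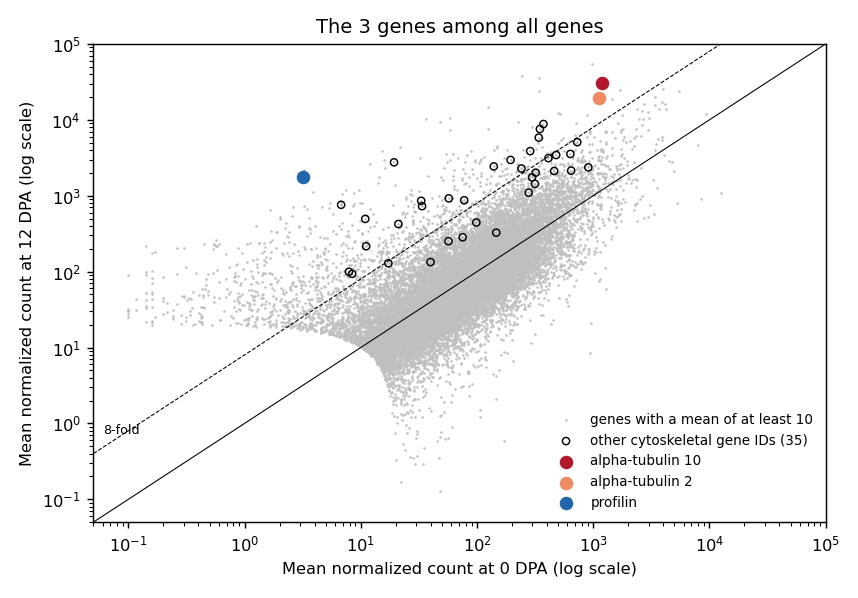
Mean normalized counts at 12 DPA against those at 0 DPA (log axes) for genes with a mean of at least 10 over both stages (grey), the other 35 cytoskeletal gene IDs (open circles) and the 3 members, with a solid line of equal means and a dashed line of an 8-fold higher 12 DPA mean. The grey genes all had reads at both stages. Alpha-tubulin 10 and 2 lie at the upper right (31072 and 19335 against 1186 and 1124), while the profilin lies at the upper left (1763 against 3.17), and all 3 are above the dashed line.

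The genes most like each member were sought by the distance between log2 means at 12 and 0 DPA, over the 2 stages and 487 other gene IDs with a protein name. Because these means are not divided by length, the order of the nearest genes also depends on gene length. Nearest to alpha-tubulin 10 were alpha-tubulin 2 (distance 0.69), a cysteine protease gene (Gorai.010G159600, 0.76) and GASL3 (Gorai.012G148600, 1.49). Nearest to alpha-tubulin 2 was the same cysteine protease gene (0.37), with 19115 normalized counts at 12 DPA, against 1457 at 0 DPA, followed by alpha-tubulin 10 and GASL3 (0.82). Nearest to the profilin were a cytochrome P450-like gene (Gorai.012G021600, 0.71), PRP5 (Gorai.009G184400, 1.26) and a MAP kinase-like gene (Gorai.002G096100, 1.56). The P450-like gene had 1128 normalized counts at 12 DPA, against 3.90 at 0 DPA. Of all 30620 other genes with reads at both stages, 4 lay within a distance of 1 of alpha-tubulin 10, 5 of alpha-tubulin 2 and 2 of the profilin. Genes without a protein name were not candidates, and 1 of them lay nearer to alpha-tubulin 10 than alpha-tubulin 2 did. Another 1 lay nearer to the profilin than the P450-like gene, and 10 genes, named or not, lay nearer to it than the MAP kinase-like gene.

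Tubulin, actin and profilin genes form families of similar sequences, and reads that align to several places in the genome were left out of the gene counts. The entry for such alignments stood at 9161917 normalized counts at 12 DPA, against 43229739 at 0 DPA. This was 1.88 times the sum over all genes at 12 DPA and 14.2 times at 0 DPA. By its name the entry holds alignments rather than reads, from any part of the genome. It does not give the reads lost from these families. Means of these families may be too low, and the part of the entry's difference between stages in their ratios was not tested. Scaling each stage by its gene sum lowers every log2 ratio by 0.68.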

How the data were processed

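Per the labels, polyadenylated RNA of 12 libraries (6 per stage) was sequenced. Per the submitters' processing notes, reads were checked with FastQC 0.10.1, trimmed with Trimmomatic 0.32, aligned with TopHat2 2.0.13 and Bowtie2 2.2.4, counted with HTSeq 0.6.0 and compared with DESeq 1.18.0. The reference was the Gossypium raimondii JGI release. The strand setting used in counting was not stated.

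The authors' deposited table gives, for 37500 genes and 5 summary entries, a signal that its header names RPKM but which is the mean over a stage of counts divided by size factors. All 7965 means above 0 and below 4 at 12 DPA, and the same number at 0 DPA, were sums of whole reads of 6 libraries (tolerance 1e-08). The summary entries were left out of all sums. The table also holds the authors' fold changes, p-values and adjusted p-values, which were not used. The stage columns are means over libraries, so no test between stages was run. Dixon's outlier limit was applied only to the 0 DPA libraries of the 4 cytoskeletal genes whose reads were decoded.

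Log2 ratios were computed from the stage means. Counting errors took reads as Poisson and cover counting only. Reads per library were taken where 1 combination alone gave the deposited mean, for named cytoskeletal genes below 10 normalized counts. On simulated data of 37500 genes, 6 of 6 steps were found and 196 of 200 low genes had 1 combination, which was right for all 196. A 0 DPA mean of 0 was set to 3 reads in the shallowest library (1.03) in counts of genes past a fold.

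Of 2156 gene IDs with a matched record, 495 had one naming a protein and 38 a cytoskeletal protein, all in the table. Named were the 3 members, any of the 38 and the 3 nearest genes of each member. Members and lists were chosen with earlier results of these data known. Alternatives were scaling by gene sums, centring on the median gene, a pseudocount of 1, a minimum mean of 10, folds of 4 and 8, 1 gene ID per record, and leaving out each 0 DPA library. Decoding all low genes was added after the reads of the profilin were seen. Tools were Python 3.11.15, numpy 2.4.6, pandas 2.3.3, scipy 1.17.1 and matplotlib 3.10.9.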

Additional observations from a re-analysis of the deposited data

Results flagged for a closer look

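The actin gene matched to ACT12 (Gorai.013G022400) had 23.1 normalized counts in 0 DPA library D and between 3.51 and 6.16 in the other 5 libraries. The gap below library D was 0.865 of the whole range, past Dixon's 95% limit for 6 samples, which about 1 in 20 groups passes by chance. The limit was applied to 4 genes and only this gene passed, so the chance of at least 1 pass is larger than for a single gene. Library D also held 22.0% of the normalized counts of the low genes in general. For the profilin the largest gap was 0.236 of the range, as D, F and A were all high.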

How the results depend on the processing

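The spread between lines is not held in stage means, except at 0 DPA for genes whose reads could be decoded. The counting errors and intervals cover counting alone. For the profilin, the SD of 2.64 around its 0 DPA mean of 3.17 is thus not part of its interval. No paired analysis was possible because the table gives means over the lines of each stage. Scaling by gene sums gave log2 ratios of 4.03 for alpha-tubulin 10, 3.43 for alpha-tubulin 2 and 8.44 for the profilin, and a median of 2.81 over the 38 cytoskeletal genes, of which 36 were then at least 2-fold higher at 12 DPA. Under this scaling the sums of the 7 gene groups were 3.31-fold to 12.1-fold higher, so no direction turned. Of all genes with reads, 4038 (12.1%) were at least 2-fold higher when scaled by gene sums, against 6977 with the size factors. With a fold of 4 the count was 3129, and with a fold of 8 it was 1544 genes and 21 of the 38. Leaving out each 0 DPA library, with the 12 DPA mean unchanged, gave log2 ratios of 8.91 to 9.50 for the profilin. Centring on the median gene and a pseudocount of 1 moved no member's ratio beyond its counting interval, the pseudocount lowering the profilin most, to 8.72.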
